A study of Mus musculus with 192 samples.

Results

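Apoa4 and 9 other genes of plasma lipoproteins (Apoa1, Apoa2, Apoa5, Apob, Apoc1, Apoc2, Apoc3, Apoe and Mttp) were followed in 9 mouse tissues after space flight. They were found by gene symbol, and each of the 10 symbols named 1 of the 54752 genes in the table. Apoa4 was chosen by its TPM and counts in the livers of flown against ground WT mice, with the rest of its family around it, so that comparison is described here without a test. That these WT values made the choice was inferred, since the rule does not name a contrast, and if the Nrf2-KO livers also entered the choice, the tests in them are not independent of it. The 4 groups were male mice, C57BL/6 by the labels (C57BL/6J in the methods), each housed alone in flight-type cages. Their age is 12 weeks by the labels. In the methods this is the age of mice ready for transport, so flown mice were older at dissection. The ground experiment simulated the flight, and its mice too were housed for a like time before dissection. The mice were WT or Nrf2KO, the latter lacking the transcription factor Nrf2 in every cell. They were either flown (Condition Flight, FL_WT and FL_KO) or kept in the same kind of cages on Earth (Condition Ground_control, GC_WT and GC_KO). RNA was measured in 192 samples of liver (Liv), kidney (Kid), brown fat (iBAT), white fat (eWAT), thymus (Thy), spleen (Spl), cerebrum (Cbr) and the temporal (TpB) and mandibular (MdB) bones. Mouse FL04 of the FL_KO group bled into the intestine on the return trip and was left out throughout. This left 184 samples and, in liver, 6 GC_WT, 6 FL_WT, 6 GC_KO and 5 FL_KO mice. Flown mice were dissected in California after landing, and ground mice at another time in Japan, both after behaviour tests. Flight therefore cannot be told apart from the place, date and landing that came with it. No statement here separates them, and "with flight" means only flown against ground mice.

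Apolipoproteins are the protein coats of the particles that carry fat and cholesterol in blood. Apob is the scaffold of particles secreted by liver and intestine, and Mttp loads lipid onto it. Apoa1 and Apoa2 build high-density lipoprotein (HDL), Apoe is the ligand by which remnants are taken up, and Apoc1, Apoc2, Apoc3 and Apoa5 tune the lipases that unload the particles. Apoa4 is made mainly by the small intestine in mice and is known in liver as a gene that responds to fasting and to fat load through Creb3l3.

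Of these genes, 7 lie in 2 clusters (coordinates on GRCm38, GENCODE vM21). On chromosome 9 stand Apoa1 (chr9:46228580-46230466, + strand), Apoc3 (chr9:46232933-46235636, − strand), Apoa4 (ENSMUSG00000032080.6, chr9:46240696-46243459, + strand) and Apoa5 (chr9:46268633-46271919, + strand). On chromosome 7 stand Apoe (chr7:19696109-19699188), Apoc1 (chr7:19689481-19692660) and Apoc2 (chr7:19671579-19677941), all on the − strand. Apoa2 (chr1:171225054-171226379, + strand), Apob (chr12:7977648-8016835, + strand) and Mttp (chr3:138089854-138144968, − strand) are apart. RefSeq promoter windows (250 bases before to 50 after a start, GRCm38.p6) were found for 8 of the 10 genes, in 12 windows. The windows of these 3 neighbours are printed 5′ to 3′, without bases inside the transcript, because their log2 fold changes with flight in Nrf2-KO liver were 3.85 (Apoa4), 0.40 (Apoa5) and −0.13 (Apoa1). Capitals mark the motifs found, a form of the HNF4 element in Apoa4 and an E box followed by a TATA box in Apoa5, while Apoa1 held none of the motifs searched.
Apoa4, chr9:46240594-46240695, + strand: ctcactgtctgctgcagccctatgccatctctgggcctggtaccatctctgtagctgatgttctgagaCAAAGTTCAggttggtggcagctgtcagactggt
Apoa5, chr9:46268358-46268607, + strand: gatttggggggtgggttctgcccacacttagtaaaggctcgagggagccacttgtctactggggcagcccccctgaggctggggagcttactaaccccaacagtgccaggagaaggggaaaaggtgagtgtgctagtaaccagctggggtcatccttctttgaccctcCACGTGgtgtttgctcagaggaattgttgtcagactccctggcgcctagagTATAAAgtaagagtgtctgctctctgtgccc
Apoa1, chr9:46228380-46228579, + strand: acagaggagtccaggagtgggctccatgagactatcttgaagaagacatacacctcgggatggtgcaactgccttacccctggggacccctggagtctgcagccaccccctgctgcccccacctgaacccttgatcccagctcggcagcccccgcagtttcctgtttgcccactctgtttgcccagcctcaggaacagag

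Both strands of each window were searched for 6 motifs. The core of the antioxidant response element that Nrf2 binds (TGACNNNGC) was in 12.4% of all 32851 windows and in none of those of the members. The HNF4 element in its C form (CAAAGTCCA) was in 0.475% of all windows and in no member window, and its T form (CAAAGTTCA), added to the search after the Apoa4 sequence had been read, was in 0.39% of all windows and in that of Apoa4, at −182 to −174 from the RefSeq start. The core of the cAMP response element (TGACGT) was in 7.51% of windows and in that of Mttp. The TATA box (TATAAA) was in 13.6% of windows and in windows of Apoa2, Apoa5, Apob and Apoe, and the E box (CACGTG) was in 7.15% and in the windows of Apoa5. These are matches of letters and carry no measurement of binding.

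Totals per sample were 13110740 to 16308175 counts in 8 tissues and 8007523 to 10564704 in Thy, where libraries were made from total RNA after removal of ribosomal RNA instead of from poly(A) RNA. TPM of Nfe2l2, the gene of Nrf2, was lower in every Nrf2-KO mouse than in every WT mouse in 9 of 9 tissues, and in liver it was 34.8 to 66.2 in WT and 13.1 to 24.1 in Nrf2-KO mice. Liver samples carried their defining markers, with 8 hepatocyte genes at a sum of 61670 to 87510 TPM. Astrocyte markers summed to 777 to 1201 TPM in Cbr, proximal tubule markers to 5176 to 6643 TPM in Kid, and adipocyte markers to 14020 to 36470 TPM in eWAT and 1003 to 3969 TPM in iBAT. Of the flown iBAT libraries, 3 (FL06, FL08 and FL11) held 2814 to 7228 TPM of 5 skeletal muscle markers, and 1 ground spleen (GC03) held more hepatocyte transcripts than the rest, so results from these tissues are given with and without those libraries.

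In liver, Apoa4 stood far higher in flown than in ground mice of both genotypes. On the ground, Apoa4 TPM of WT mice had a lowest value of 42.6, a median of 69.3 and a highest value of 74.6. In flown WT mice the lowest, median and highest values were 660.8, 1035 and 1584, and the mean was 1068 ± 390.7 (SD, n = 6) against 63.6 ± 13.2 (SD, n = 6). The lowest flown mouse thus stood above every ground mouse, and the ratio of mean TPM was 16.8. On normalised counts the log2 fold change was 3.999 (SE 0.212), given without a test because this contrast chose the gene.

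The Nrf2-KO mice are other animals, and there the change of Apoa4 was tested. The genes were chosen with earlier results of these data known, so this test may not be independent of the choice. The GC_KO livers had a lowest TPM of 33.1, a median of 38.7 and a highest value of 45.5, with a mean of 39.4 ± 4.71 (SD, n = 6). The 5 FL_KO livers had 474, 572.3, 643.7, 655.2 and 834 TPM, with a mean of 635.8 ± 132.2 (SD, n = 5). The groups did not overlap, and Apoa4 rose by 3.85 on the log2 scale (SE 0.215, 95% interval 3.42 to 4.28, adjusted p = 1.05e-10 by edgeR's quasi-likelihood test over 13433 genes), a ratio of mean TPM of 16.1. Across 14 alternative settings this log2 fold change lay between 3.77 and 3.99, past the threshold in each. The depth behind it was 566 to 792 counts per GC_KO mouse and 8098 to 13873 per FL_KO mouse. In bulk tissue, less RNA per cell and fewer cells of a type cannot be told apart.

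The intestine is the other main source of Apoa4, so enterocyte markers were summed in liver. Sucrase-isomaltase (Sis) and intestinal alkaline phosphatase (Alpi) were among the 3 of 6 markers at 0 in all FL_KO livers, and 5 of the 6 had a mean TPM under 1. The sum was 45.6 to 55.4 TPM in GC_KO and 66.7 to 104.6 TPM in FL_KO mice, and nearly all of it was Fabp2, an intracellular fatty acid carrier, which rose by 0.73 on the log2 scale (adjusted p = 0.00126, edgeR). Hepatocyte markers summed to 63380 to 75600 TPM in GC_KO and 70520 to 87510 TPM in FL_KO mice, and 1 of the 8 was called, lower.

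**Figure D1:**
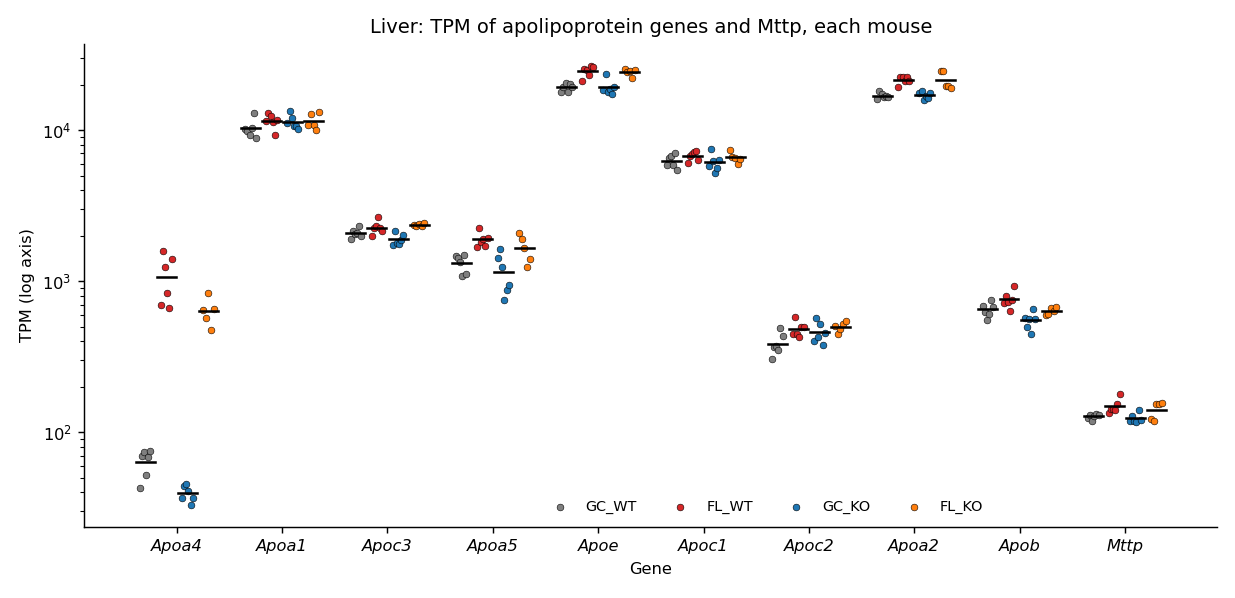
Liver TPM of the 10 genes on a log axis, with 1 point per mouse and bars at the group means of GC_WT, FL_WT, GC_KO and FL_KO. The flown groups of Apoa4 (474 to 1584 TPM) stand clear of its ground groups (33.1 to 74.6 TPM), and those of Apoa2 do so by a small gap (19070 to 24660 against 15870 to 18240 TPM).

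Of the other 9 genes, none passed the test in FL_KO against GC_KO livers. All 10 genes were tested, 1 was called higher and 0 lower, where 1.31% of all genes tested were called higher and 2.02% lower. Of the 10, 4 had an unadjusted p under 0.05 by edgeR, as did 2072 of all 13433 genes tested. The log2 fold changes of the 9 others ran from −0.13 to 0.40 with a median of 0.06, beside a median of 0.01 over all genes tested, and 6 were above 0 and 3 below. In FL_WT against GC_WT livers the 9 ran from 0.05 to 0.44 with a median of 0.16, beside 0.00 over all genes, and all 9 were above 0.

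Apoa1 and Apoa2 encode the main proteins of HDL. Apoa1 TPM was 10260 ± 1451 in GC_WT, 11490 ± 1254 in FL_WT, 11360 ± 1184 in GC_KO and 11530 ± 1411 in FL_KO mice (SD). These 4 groups overlapped, and the log2 fold changes with flight were 0.11 in WT and −0.13 in Nrf2-KO mice (adjusted p = 0.652). Apoa2 TPM was 16920 ± 786 in GC_WT, 21500 ± 1237 in FL_WT, 17060 ± 877.6 in GC_KO and 21530 ± 2858 in FL_KO mice. Every flown mouse (19070 to 24660 TPM) stood above every ground mouse (15870 to 18240 TPM), yet the log2 fold changes of normalised counts were 0.28 and 0.20 (adjusted p = 0.355 in Nrf2-KO).

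Apob and Mttp, the scaffold and the lipid loader of particles made in liver, moved little with flight. Apob TPM was 650.1 ± 68.0 in GC_WT, 759.1 ± 100.8 in FL_WT, 549 ± 71.9 in GC_KO and 634.4 ± 34.6 in FL_KO mice. Its log2 fold changes with flight were 0.16 in WT and 0.06 in Nrf2-KO mice, and the flown and ground mice of each genotype overlapped. Mttp TPM was 127.3 ± 5.11, 148.8 ± 16.2, 123.6 ± 9.28 and 141.1 ± 19.0 in the same order of groups. Its WT mice did not overlap (118.5 to 132.3 on the ground, 134 to 178.9 flown), while FL_KO mice, at 118.8 to 157.2, overlapped with GC_KO mice.

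Among the genes that tune lipases, Apoa5, which promotes lipase action, differed most. Apoa5 TPM was 1320 ± 178.3 in GC_WT and 1887 ± 209.1 in FL_WT mice, with no overlap (1078 to 1484 against 1694 to 2263). In Nrf2-KO mice it was 1145 ± 346.6 on the ground and 1654 ± 337.9 in flight, with overlap, and the log2 fold change of 0.40 did not pass (adjusted p = 0.286). Apoc3, a lipase inhibitor beside Apoa4 on the chromosome, had 1888 ± 161 TPM in GC_KO and 2359 ± 56.9 in FL_KO mice. These 2 groups did not overlap (1745 to 2138 against 2309 to 2444), but the log2 fold change was 0.17 (adjusted p = 0.239), and in WT mice it was 0.06 with overlap. Apoc1, an inhibitor of lipid uptake, had log2 fold changes with flight of 0.05 in WT and −0.04 in Nrf2-KO mice. Apoc2, the cofactor of lipoprotein lipase, had 0.26 and −0.03.

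Apoe was the most abundant of the genes in liver by TPM. It stood at 19160 ± 1162 TPM in GC_WT, 24630 ± 2106 in FL_WT, 19180 ± 2272 in GC_KO and 24280 ± 1200 in FL_KO mice. The WT groups did not overlap (17750 to 20520 against 21050 to 26580), while the highest GC_KO mouse, at 23590 TPM, reached into the FL_KO range of 22210 to 25240. On normalised counts the log2 fold change was 0.29 in WT and 0.19 in Nrf2-KO mice (adjusted p = 0.30).

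Which of these small differences were called depended on the scale. TPM of all genes tested shifted by a median log2 of 0.08 between FL_WT and GC_WT and 0.15 between FL_KO and GC_KO livers, a shift that TMM factors for the counts take out. By limma on log2(TPM + 1), 5 of the 10 genes were called between FL_KO and GC_KO: Apoa4 with 3.96, Apoa5 with 0.56 (adjusted p = 0.0263), Apoe with 0.35 (0.00389), Apoa2 with 0.33 (0.00362) and Apoc3 with 0.33 (0.0033). As mean TPM, Apoe was higher by 26.6%, Apoa2 by 26.2%, Apoc3 by 24.9% and Apoa5 by 44.5%. Flown and ground mice with the same number are different animals, but their Nrf2-KO livers deviated alike from the group means (r of 0.222 to 0.369 in 5 pairs). Differently numbered pairs were not examined, so a pairing is not established. The same counts were also fitted with the mouse number as a block. By edgeR this called 2 genes, Apoa4 at 3.89 (adjusted p = 1.68e-09) and Apoa5 at 0.44 (adjusted p = 0.0242).

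Summed, the 10 genes held 5.72% ± 0.312 of all liver TPM in GC_WT, 7.10% ± 0.412 in FL_WT, 5.79% ± 0.493 in GC_KO and 6.99% ± 0.479 in FL_KO mice (SD). The ranges of flown and ground WT mice did not overlap (6.36% to 7.52% against 5.44% to 6.22%), and those of the Nrf2-KO mice did. Counted by overlap of TPM, 5 of the 10 genes had every FL_WT mouse above every GC_WT mouse (Apoa4, Apoa5, Apoe, Apoa2 and Mttp), where 2.32% of all genes tested were so placed and 0.566% the other way, but this contrast chose the genes. In FL_KO against GC_KO mice it was 3 of 10 (Apoa4, Apoa2 and Apoc3), where 5.29% of all genes lay without overlap higher and 0.64% lower.

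**Figure D2:**
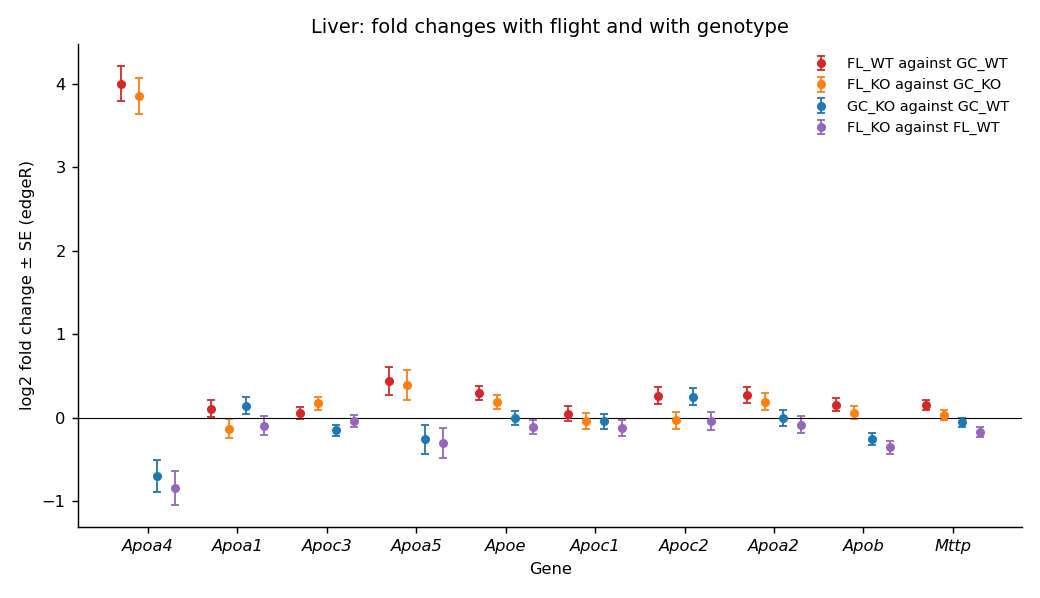
Log2 fold changes of the 10 genes in liver with their standard errors (edgeR), for FL_WT against GC_WT, FL_KO against GC_KO, GC_KO against GC_WT and FL_KO against FL_WT. Apoa4 is at 3.999 and 3.85 in the flight contrasts and at −0.69 and −0.84 in the genotype contrasts, while the other genes stay within 0.5 of 0.

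Apoa4 had a lower mean in Nrf2-KO than in WT livers in both conditions. On the ground, the mean TPM ratio of GC_KO to GC_WT mice was 0.620, and the log2 fold change of −0.69 (SE 0.191) missed the threshold (adjusted p = 0.053). Among flown mice the mean TPM ratio was 0.596, and the log2 fold change was −0.84 (SE 0.20), given without a test because the high FL_WT values chose the gene. The flown groups overlapped, at 474 to 834 TPM against 660.8 to 1584. The contrast on the ground shares the GC_WT mice with the one that chose Apoa4, and its call was gained without FL_KO mouse 11 in the fit (adjusted p = 0.0481).

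Apob was lower in FL_KO than in FL_WT livers, by a log2 fold change of −0.35 with an SE of 0.0776 (adjusted p = 0.00959), and its ground value was −0.25 (adjusted p = 0.0709). With Apoa4 left aside, Apob alone of the 10 genes was called between FL_KO and FL_WT mice. Of all genes, 2.29% were called lower there and 1.36% higher. All 10 log2 fold changes of normalised counts were below 0, that of Apoa4 included. On the TPM scale the ratio of means was above 1 for Apoa1 (1.003), Apoa2 (1.001), Apoc2 (1.037) and Apoc3 (1.044) and below 1 for the rest. TPM of all genes tested shifted by a median log2 of 0.07 in this contrast. Between GC_KO and GC_WT mice 0 of 10 were called by edgeR, where 1.7% of all genes were called lower and 0.938% higher. Here 4 of the 10 had an unadjusted p under 0.05, as did 1805 of all 13433 genes. DESeq2 called Apoa4 (adjusted p = 0.0135) and Apob (adjusted p = 0.0115) there. For Apoa4 this is not independent of the choice, which used the same GC_WT mice. Among flown mice limma on log2(TPM + 1) called none of the 10.

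The rise of Apoa4 was compared with that of its neighbours on chromosome 9. Of 14 genes that start within 200 kb of its start, 7 were tested, and 2 were called between FL_KO and GC_KO mice. The second was Gm10680, an antisense gene (chr9:46242621-46243529, − strand) that overlaps the end of Apoa4, at a mean TPM of 0.08 in GC_KO and 1.42 in FL_KO mice and a log2 fold change of 3.71 with an SE of 0.536 (adjusted p = 0.000309). Libraries were strand-specific, but the strand setting of the counting is not given in the sources used here, so reads of Gm10680 and Apoa4 cannot be told apart. Apoc3, starting 5.06 kb from Apoa4, Apoa1 at 12.12 kb and Apoa5 at 27.94 kb were not called. Beyond Apoa5, Zpr1, a zinc finger protein gene, was at −0.16 and Bud13, a splicing factor gene, at 0.06.

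In the cluster on chromosome 7, 8 genes start within 50 kb of the start of Apoe, 7 were tested and 0 were called. Apoc4, a further apolipoprotein gene of this cluster, had 1099 TPM in GC_KO and 1309 TPM in FL_KO mice and a log2 fold change of 0.11. Clptm1, Tomm40 and Gm44805 were at −0.05, −0.10 and −0.65. Gm44805 (chr7:19671584-19681423, − strand) spans Apoc2 and overlaps Apoc4 on the same strand, so reads of these genes can be split among them, and the values of Apoc2 are uncertain to that extent.

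Genes whose liver levels followed Apoa4 most closely were looked for among the 7967 genes tested whose mean TPM reached 5. Over the 23 mice, Pearson r of log2(TPM + 1) with Apoa4 was highest for Azgp1 (0.941), Gnas (0.939), Cyp2d26 (0.936), H2-Ke6 (0.932) and Ldha (0.928), with a median of 0.296 and a 99th percentile of 0.843 over all genes. Of these 5, Ldha (lactate dehydrogenase), Cyp2d26 and H2-Ke6 were called higher in FL_KO than in GC_KO mice, by 0.48, 0.49 and 0.32 on the log2 scale (adjusted p = 0.000309, 0.013 and 0.00602). Azgp1, at 0.22 (adjusted p = 0.0581), and Gnas, at 0.18 (adjusted p = 0.225), were not. Within the family r ran from 0.280 for Apoa1 to 0.876 for Apoe. The mice fall into flown and ground clusters, so these values mostly repeat the group difference and are given as a description.

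With each group's mean removed, the order was another. Grina had r = 0.770, Rnasek 0.744, B9d2 0.741, Hyal2 0.716 and Snx33 0.699, with a median of 0.116 and a 99th percentile of 0.563 over all genes. They were picked as the highest of 7967 genes, so these values too are a description. None of these 5 was called between FL_KO and GC_KO mice. Grina was lower in Nrf2-KO than in WT livers both on the ground (−0.60, adjusted p = 3.75e-06) and in flight (−0.72, adjusted p = 4.71e-07). Apoe had r = 0.506 on this scale and Apoc2 0.482.

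Genes around the lipoprotein pathway were read from lists, beside the median of 0.01 over all genes in FL_KO against GC_KO livers. These lists were chosen with earlier results of these data known, so their counts are a description and not an independent test. Of 18 targets of Ppara and Creb3l3, the factors that switch on fat burning in fasting, 11 were called higher and 0 lower, where 1.31% of all genes tested were called higher and 2.02% lower. Their median log2 fold change was 0.74, 17 of 18 were above 0, and in WT mice 18 of 18 were above 0 with a median of 0.79. Fgf21, a liver hormone of fasting, went from 1.10 to 10.5 TPM and rose by 3.13 on the log2 scale (SE 0.422, adjusted p = 0.000211). Acot1, an acyl-CoA thioesterase, went from 32.2 to 89.8 TPM and rose by 1.36 (adjusted p = 0.0019). Members of this list that did not pass include Cpt1a, the gate of fatty acid oxidation, at 0.21 (adjusted p = 0.774).

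The 13 regulators of apolipoprotein genes had 0 calls in either direction by edgeR and a median of −0.01, and the 14 genes of lipoprotein assembly and secretion also had 0 calls, with a median of 0.07. Of 5 other apolipoproteins tested, Apoh rose by 0.42 on the log2 scale (1583 to 2340 TPM, adjusted p = 0.00317). Apom, the HDL carrier of sphingosine phosphate, was lower by −0.40 (177.9 to 149.8 TPM, adjusted p = 0.0242), a call lost without FL_KO mouse 02 (adjusted p = 0.0512) or 11 (adjusted p = 0.063). Of 8 lipases and regulators, hepatic lipase, Lipc, rose by 0.54 (92.2 to 149.1 TPM, adjusted p = 0.0021), and 0 were lower.

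Among the receptor and HDL lipid transfer genes, the calls of Vldlr, Pon1 and Abca1 each depended on single mice. Among 8 receptor genes, Vldlr rose by 1.13 (0.58 to 1.55 TPM, adjusted p = 0.0313), and without FL_KO mouse 01 it was at 0.79 (adjusted p = 0.13). Among 6 genes of HDL lipid transfer, Pon1, an HDL-bound esterase, rose by 0.43 (475.7 to 703.8 TPM, adjusted p = 0.0259, and 0.0881 or 0.0945 without FL_KO mouse 01 or 02). Abca1, the cholesterol exporter, fell by 0.34 on the log2 scale (31.7 to 28.02 TPM, adjusted p = 0.0198, and 0.0657 or 0.0658 without the same mice).

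Between genotypes, Cd36, a fatty acid receptor, was lower in Nrf2-KO livers on the ground (−1.33, adjusted p = 0.000419) and in flight (−1.42, adjusted p = 0.00035). Fitm1, a lipid droplet protein in the Ppara list, was lower by −1.95 and −2.03 (adjusted p = 1.74e-05 and 2.24e-05). In flight 3 of 14 assembly genes (P4hb, A1cf and Mia2) were also called lower and 2 of 8 receptor genes (Scarb1 and Vldlr) higher, where 2.29% of all genes were called lower and 1.36% higher. Macrophages also make Apoe. Their 8 markers summed to 128.8 to 222.6 TPM in GC_KO and 110.6 to 170.6 TPM in FL_KO livers. Of these markers 1 was called lower and 0 higher, with 8 of 8 log2 fold changes below 0 and a median of −0.467. In WT livers they summed to 95.8 to 205 TPM on the ground and 65.9 to 129.4 TPM in flight, with 8 of 8 log2 fold changes below 0 and a median of −0.71.

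**Figure D3:**
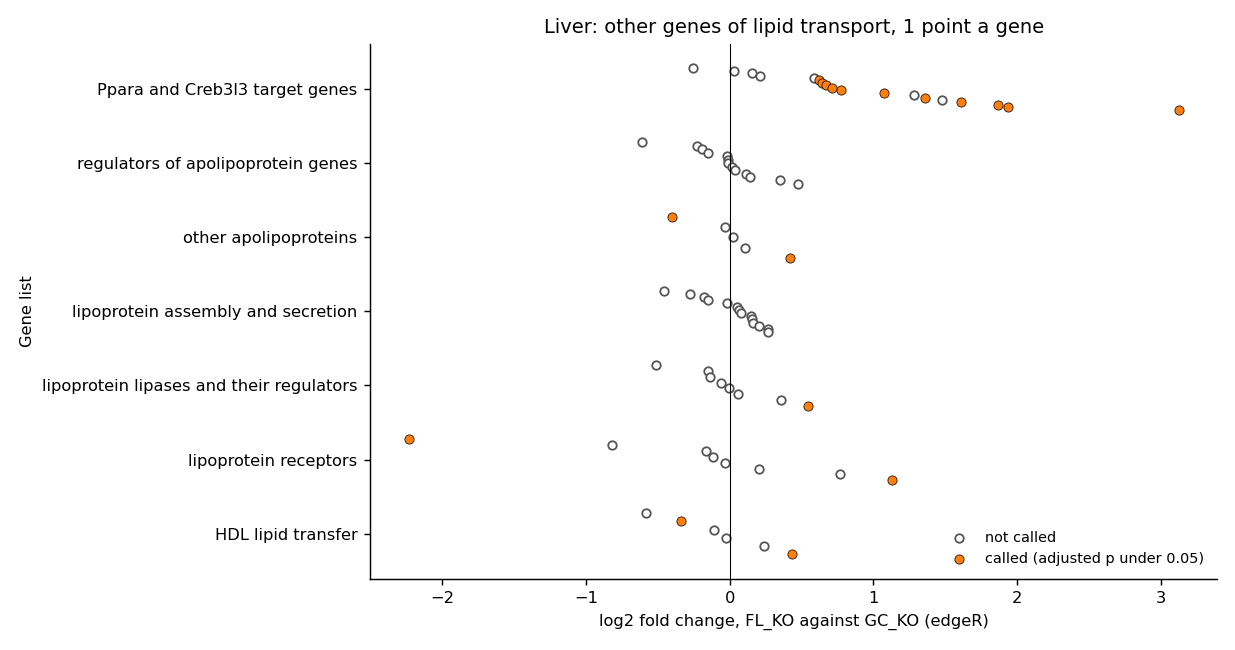
Log2 fold changes (edgeR) in liver of the genes of each list in FL_KO against GC_KO mice, with 1 point per gene, filled where the adjusted p was under 0.05. Of the targets of Ppara and Creb3l3, 17 of 18 lie above 0 (median 0.74), and the other lists have medians from −0.08 to 0.07. The lists were chosen with earlier results of these data known.

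All 10 genes were highest in liver among the ground WT tissues, and no GC_WT value from another tissue reached the liver range. For Apoa4 the next tissue was Kid at 9.83 ± 1.06 TPM (8.63 to 10.6, n = 3), which did not overlap with Liv above or Thy below. Below it, Thy (1.88), TpB (1.11), Spl (0.93), MdB (0.20), eWAT (0.075), iBAT (0.0067) and Cbr (listed at 0) each overlapped with the next. Apob and Mttp also had Kid second, at 13.1 and 9.97 TPM. Apoe was broad, with 5299 TPM in eWAT, 2297 in Cbr, 2168 in TpB and 2078 in Spl, then 539.9 in MdB, 510.7 in iBAT, 411 in Thy and 201.4 in Kid. The ranges of Cbr, TpB and Spl overlapped, and that of iBAT overlapped with those of MdB and Thy, which were apart from each other. Apoc1 had iBAT second (633.4 TPM), followed by eWAT (293.4 TPM), without overlap. Apoa1 in eWAT ran from 0.46 to 77.6 TPM between mice of this group.

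**Figure D4:**
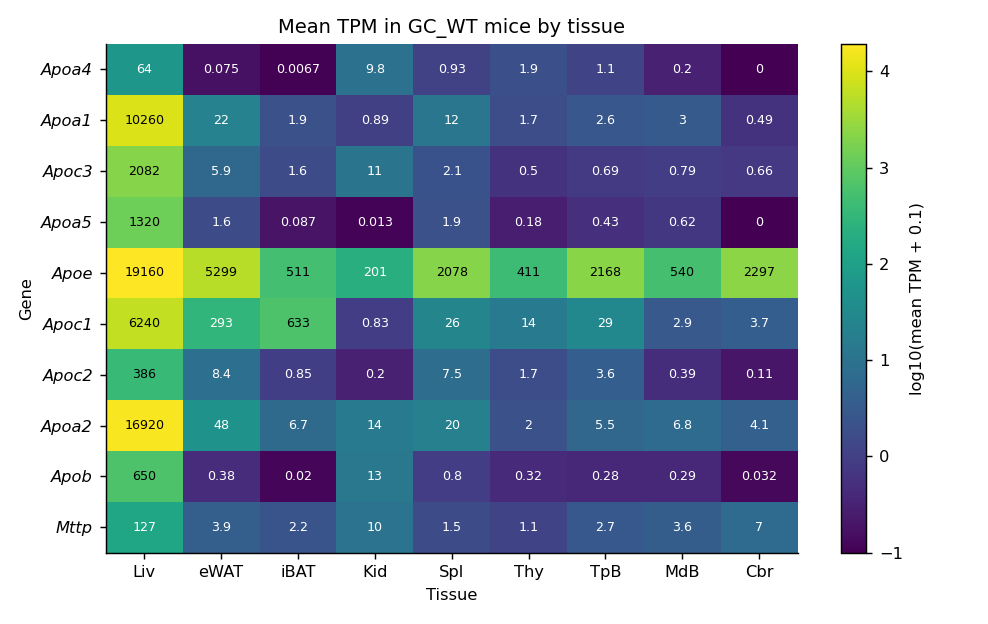
Mean TPM of the 10 genes in the 9 tissues of GC_WT mice, coloured as log10(mean TPM + 0.1). Liver is the highest column for each gene, Apoe is the row with 201.4 TPM or more in each tissue, and Apoc1 is next highest in iBAT and eWAT.

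Outside liver, 62 pairs of gene and tissue passed the filter on low counts. In FL_WT against GC_WT mice 9 pairs were called, 6 higher and 3 lower, with 27 at an unadjusted p under 0.05, and 43 of 62 were above 0. They stood in iBAT (2 of 8, where 19.2% of all genes were called in either direction), Thy (5 of 8, against 22.8%) and Spl (2 of 9, against 2.26%). None was called in TpB, MdB, eWAT, Kid and Cbr, where the shares of all genes were 0.0%, 0.0%, 13.4%, 0.119% and 0.0244%. In FL_KO against GC_KO mice 6 pairs were called, 5 higher and 1 lower, with 13 at an unadjusted p under 0.05. They stood in iBAT (2 of 8, against 33.5%) and Thy (4 of 8, against 38.2%), and none in TpB, MdB, Spl, eWAT, Kid and Cbr (0.0%, 0.0%, 0.668%, 7.71%, 0.159% and 0.0061%). The share of genes in iBAT is thus close to the background there. The share of all genes with an unadjusted p under 0.05 varied widely between tissues. In FL_WT against GC_WT mice it went from 548 of 16382 in Cbr to 5816 of 16307 in Thy. In FL_KO against GC_KO mice it went from 486 of 18184 in TpB to 7630 of 16307 in Thy.

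The difference between the flight responses of the genotypes was tested outside liver and was called for 0 of 62 pairs by edgeR, DESeq2 and limma, with 13 at an unadjusted p under 0.05 by edgeR. Between GC_KO and GC_WT mice 1 pair was called, Apoe in Thy. The shares of all genes called there were 0.198% in TpB, 0.244% in MdB, 1.13% in Spl, 2.74% in eWAT, 2.14% in iBAT, 3.81% in Thy, 1.61% in Kid and 0.836% in Cbr. Between FL_KO and FL_WT mice 0 of 62 were called by edgeR, with 10 at an unadjusted p under 0.05. Over all genes that p was reached by 418 of 18184 in TpB and up to 3233 of 16307 in Thy. The share of all genes called in this contrast was read only without the muscle-rich iBAT libraries (0.767%) and without GC03 in Spl (1.21%). For the difference between flight responses it was 0% in both of those fits. These counts of 0 are therefore not read as a result about the 10 genes.

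In brown fat, Apoe rose with flight while Apoc1, its neighbour on chromosome 7, fell. Apoe TPM was 510.7 ± 119 in GC_WT (352.2 to 660.7) and 1217 ± 235 in FL_WT mice (878.1 to 1448), and the log2 fold change was 0.93 (SE 0.142, adjusted p = 9.37e-05). In Nrf2-KO mice it was 338.1 ± 50.2 (286.1 to 425.9) and 1166 ± 89.0 (1055 to 1293), with 1.36 (SE 0.148, adjusted p = 4.92e-07). Neither pair of groups overlapped. Apoc1 TPM went from 633.4 ± 98.8 (527.3 to 815.5) to 394.1 ± 58.3 (335.7 to 463.8) in WT and from 548.3 ± 53.8 (502.5 to 648) to 400.9 ± 49.3 (359.6 to 482.1) in Nrf2-KO mice. Again the ranges were apart, and the log2 fold changes were −1.02 (adjusted p = 1.87e-05) and −0.88 (adjusted p = 6.02e-05). TPM of all genes tested shifted by a median log2 of 0.31 and 0.43 in these contrasts, and both genes kept their direction and their call on either scale.

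Without the 3 iBAT libraries rich in skeletal muscle transcripts, Apoe was at 0.93 in WT (adjusted p = 0.000561) and 1.42 in Nrf2-KO mice (adjusted p = 2.11e-06), and Apoc1 at −1.04 and −0.83 (adjusted p = 0.00018 and 0.000392), where 15.2% and 31.4% of all genes were called. Other cell markers moved with these genes in part. Of 8 macrophage markers 0 were called in WT and 6 higher in Nrf2-KO mice, with sums of 39.5 to 104.1 TPM in GC_WT, 64.5 to 106.7 in FL_WT, 35.4 to 63.2 in GC_KO and 76.8 to 153.4 in FL_KO mice. Of 4 adipocyte markers 2 were called higher in WT and 1 in Nrf2-KO mice. The part of these cells in the result was not tested. On the ground Apoe was at −0.52 in Nrf2-KO against WT iBAT and was not called by edgeR (adjusted p = 0.0535). It was called lower by DESeq2 (adjusted p = 0.0143) and by limma on log2(TPM + 1) (adjusted p = 0.0249), but not by limma without a TPM filter. By edgeR the flight responses of the genotypes differed by 0.43 (unadjusted p = 0.0454, adjusted p = 0.585).

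In thymus Apoe, Apoc1 and Apoa4 rose with flight in both genotypes. Apoe TPM was 411 ± 47.2 in GC_WT (331.9 to 451.5) and 696.3 ± 207.4 in FL_WT mice (511.2 to 1071), a log2 fold change of 0.52 with an SE of 0.112 (adjusted p = 0.00184). In Nrf2-KO mice it was 279.5 ± 47.1 (204.1 to 333.5) and 571 ± 50.2 (517 to 636.2), a log2 fold change of 0.79 with an SE of 0.118 (adjusted p = 1.68e-05). On the ground Apoe was lower in Nrf2-KO than in WT thymus, by −0.46 (adjusted p = 0.0209), with overlap. Apoc1 went from 14.4 to 32.5 TPM in WT (0.93, adjusted p = 0.000399) and from 14.1 to 25.4 TPM in Nrf2-KO mice (0.60, adjusted p = 0.0119).

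Apoa4 rose in thymus as well, at a level far below that of liver. Its TPM was 1.88 ± 0.404 in GC_WT (1.42 to 2.42) and 3.62 ± 1.22 in FL_WT mice (1.99 to 5.54), with 0.69 on the log2 scale (adjusted p = 0.0212) and overlap. In Nrf2-KO mice it was 1.02 ± 0.311 (0.69 to 1.48) and 3.14 ± 0.889 (2.04 to 4.04), with 1.36 (adjusted p = 0.00013) and no overlap. These are 11 to 82 counts per mouse. In WT mice Apob (0.317 to 1.04 TPM, 1.46, adjusted p = 0.0144) and Apoa1 (1.69 to 4.35 TPM, 1.13, adjusted p = 0.0454) were called too, and the call of Apoa1 was lost without FL_KO mouse 11 (adjusted p = 0.0501) or 12 (adjusted p = 0.0503). In Nrf2-KO mice Mttp was called (0.817 to 1.37 TPM, 0.51, adjusted p = 0.0166).

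Macrophage markers rose in the same thymus libraries, with 4 of 8 called higher in WT and 8 of 8 in Nrf2-KO mice. Their sums were 235 to 323.3 TPM in GC_WT, 311.9 to 608.4 in FL_WT, 173.6 to 266.4 in GC_KO and 343.2 to 453.1 in FL_KO mice. Hepatocyte markers summed to 7.36 to 30.7, 19.2 to 54.8, 5.27 to 23.7 and 4.94 to 40.9 TPM in the same order. The 6 enterocyte markers summed to 1.06 to 1.61, 1.4 to 3.11, 0.63 to 1.46 and 1.86 to 3.43 TPM in that order. Only 2 of the 6 passed the filter on low counts, with 1 called higher in WT and 2 in Nrf2-KO mice. The part of these cell types in the result was not tested. TPM of all genes tested shifted by a median log2 of 0.18 and 0.16.

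**Figure D5:**
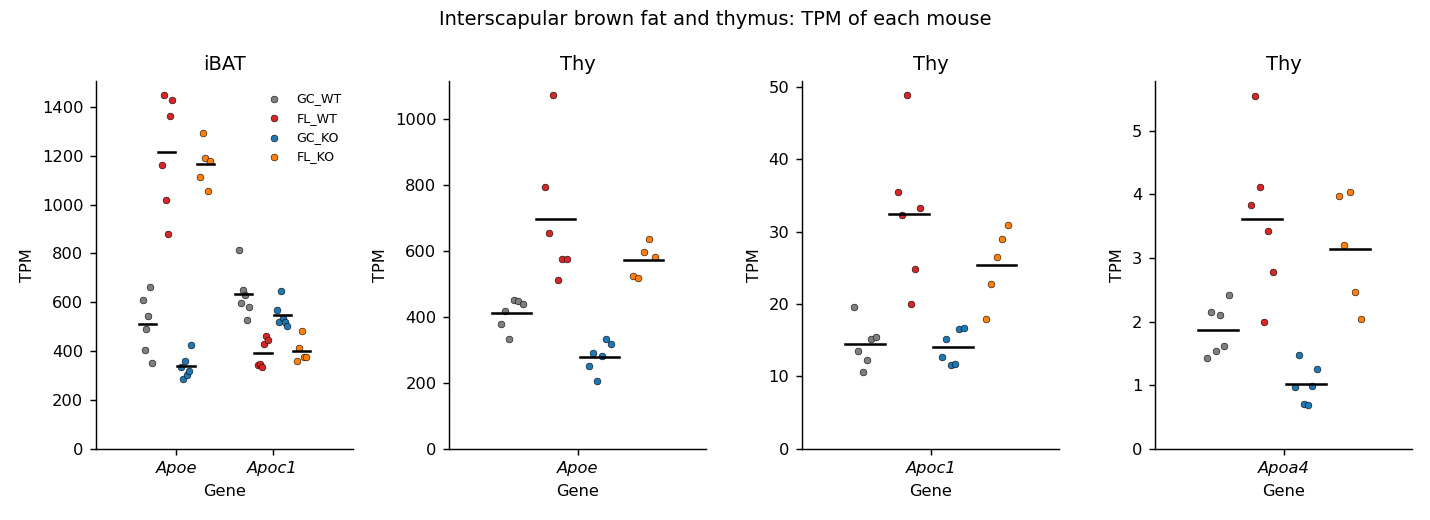
TPM of Apoe and Apoc1 in iBAT and of Apoe, Apoc1 and Apoa4 in Thy, with 1 point per mouse and bars at the group means. In iBAT the flown mice lie above the ground mice for Apoe (878.1 to 1448 against 286.1 to 660.7) and below them for Apoc1, and in Thy the flown means are the higher ones for the 3 genes.

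In spleen 2 liver-type genes were called lower in FL_WT than in GC_WT mice, and neither was called without 1 ground library. Apoa1 went from 11.9 ± 13.2 to 3.15 ± 1.42 TPM (−1.90, adjusted p = 0.0442) and Apoa5 from 1.91 ± 1.76 to 0.497 ± 0.362 TPM (−2.28, adjusted p = 0.0431). Mouse GC03 held 37.4 TPM of Apoa1 and 5.35 of Apoa5, the highest values of its group. Hepatocyte markers summed to 36.1 to 221.8 TPM in GC_WT and 27.5 to 52.6 TPM in FL_WT mice. Without GC03, Apoa1 was at −1.12 (adjusted p = 0.161) and Apoa5 no longer passed the filter on low counts, with 0.757% of all genes called. In FL_KO against GC_KO spleens all 9 genes tested were above 0, with a median of 0.21. By edgeR 0 were called and 1 had an unadjusted p under 0.05, as did 2098 of all 16170 genes.

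In kidney the flown mice of both genotypes had more Apoc3, but the difference did not pass. The GC_WT mice had 9.56, 10.4 and 12.0 TPM and the FL_WT mice 18.1, 21.3 and 30.3 TPM. The GC_KO mice had 9.94, 11.9 and 16.2 TPM and the FL_KO mice 26.6, 26.7 and 29.1 TPM. Flown and ground mice did not overlap, and the log2 fold changes were 1.07 (adjusted p = 0.128) and 1.04 (adjusted p = 0.0916) by edgeR, while DESeq2 called both (adjusted p = 0.0149 and 0.00827). Kidney Apoa4 had 9.83 ± 1.06 TPM in GC_WT, 11.5 ± 0.535 in FL_WT, 8.91 ± 1.32 in GC_KO and 11.4 ± 1.92 in FL_KO mice (n = 3 each).

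Elsewhere edgeR did not call Apoe with flight. In eWAT its TPM went from 5299 to 6812 in WT and from 5393 to 6504 in Nrf2-KO mice, with a log2 fold change of 0.26 in each (adjusted p = 0.125 and 0.171), while limma on log2(TPM + 1) called it in WT (0.36, adjusted p = 0.0192). In Cbr the log2 fold changes were 0.02 in WT and −0.00 in Nrf2-KO mice, with a 95% interval of −0.14 to 0.13 in the latter. In Spl they were 0.15 and 0.21, in TpB 0.02 and 0.06, in MdB −0.12 and 0.10 and in Kid −0.12 and 0.16, none of them called. In MdB 7 of 9 genes tested were above 0 in FL_WT mice, with a median of 2.03. By edgeR 0 were called and 6 had an unadjusted p under 0.05, as did 1420 of all 16361 genes. Hepatocyte markers there summed to 27.0 to 34.1 TPM in GC_WT and 30.3 to 182.3 TPM in FL_WT mice, and their part was not tested.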

How the data were processed

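RNA of 9 tissues was sequenced in single reads of 76 cycles. The authors mapped reads to mm10 with STAR 2.6.1 and estimated expression with RSEM 1.3.1. The expected counts deposited by the authors are RSEM estimates per gene (GENCODE vM20), without normalization, and the TPM values deposited by the authors are RSEM's own, scaled by gene length and to 1 total per sample. A further 192 columns of FPKM were not used. Positions were read from GENCODE vM21 (99.9% of identifiers matched).

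Groups, genotypes and mouse numbers came from the labels. Expected counts were rounded and fitted tissue by tissue with edgeR 4.0.16 under R 4.3.3 (filterByExpr by group, TMM factors, quasi-likelihood test, the 4 groups in 1 fit, FL04 left out). Benjamini-Hochberg adjustment covered every gene tested in the tissue, and a gene was called below 0.05. The p-values weigh a difference between groups against the spread between mice within groups. All flown mice came from 1 flight, so they do not cover differences between flights. Log2 fold changes are of normalised counts and levels are TPM. The scripts were tested on simulated data. Alternatives were DESeq2 1.42.0, RLE factors, no filter on low counts, limma 3.58.1 with log2(TPM + 1) as the value (mean TPM of 5 or more in a group), a pseudocount of 0.1, no TPM filter, FL04 included, only the 2 groups of a contrast, the mouse number as a replicate block, and each FL_KO mouse (in MdB and Kid each mouse) left out. Chosen after seeing the data were fits without the 3 muscle-rich iBAT libraries and without GC03 in Spl, and 1 motif. The members and the gene lists were chosen with earlier results of these data known.

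Named were the 10 genes in liver, Apoe in every tissue, genes called elsewhere whose mean TPM reached 1 in a group, up to 3 list genes per direction called in FL_KO against GC_KO livers, 5 genes per measure of likeness to Apoa4, and neighbours within 200 kb of Apoa4 and 50 kb of Apoe. Other genes named (Fabp2, Sis, Alpi, Cpt1a, Cd36, Fitm1 and those listed with them, and Apoc3 and Apoa4 in Kid) were chosen after their values were seen. Flown and ground mice with the same number are different animals. Deviations from the group means of same-numbered mice correlated at 0.222 to 0.369 in the 5 Nrf2-KO pairs of liver, and in no other tissue and genotype with at least 3 pairs were all pairs above 0.1, so block values are given beside the liver result. Results of some genes that the rule names are not reported here.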

Additional observations from a re-analysis of the deposited data

Results flagged for a closer look

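Of 96 groups of 4 or more mice examined for TPM of these genes, 9 held a mouse beyond Dixon's 95% limit, where chance gives about 1 in 20. In liver these were Apoa1 in GC_WT mouse GC08, at 12970.27 TPM (others 8838 to 10330), Apoe in GC_KO mouse GC02, at 23592.63 TPM (17290 to 19280), and Apoe in FL_KO mouse FL11, the lowest at 22206.51 TPM (24380 to 25240). In spleen they were Apoa1 in GC_WT mouse GC03, at 37.36 TPM (3.55 to 15.58), and in FL_WT mouse FL06, at 5.93 TPM (1.95 to 3.03), Apoa5 in GC_WT mouse GC03, at 5.35 TPM (0.33 to 1.85), and in GC_KO mouse GC02, at 1.74 TPM (0.2 to 0.61), and Apoe in GC_WT mouse GC07, at 2380.54 TPM (1917 to 2088). In thymus it was Apob in GC_WT mouse GC03, at 0.65 TPM (0.14 to 0.33). Apoa4 was beyond the limit in none of its groups examined.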

How the results depend on the processing

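Liver Apoa4 in FL_KO against GC_KO kept its direction and call in 14 of 14 alternatives (3.77 to 3.99). The number of the 10 genes called there was 1, and 5 by limma on log2(TPM + 1) or log2(TPM + 0.1), 2 without a TPM filter, 2 with the replicate block, and 1 to 1 with an FL_KO mouse left out. In the same contrast limma turned Apoa1 to 0.0185, Apoc1 to 0.12 and Apoc2 to 0.14, none called, and Apoc1 was at 0.0 without FL_KO mouse 11 (−0.10 to 0.0 over mice left out). For GC_KO against GC_WT livers the count was 0, and 2 by DESeq2, 1 with only the 2 groups and 0 to 1 with a mouse left out. For FL_KO against FL_WT livers Apoa4 was left aside. Apob was called there, also with only the 2 groups and with each FL_KO mouse left out. No limma fit called it, on either pseudocount or without a TPM filter. Outside liver the 9 calls of FL_WT against GC_WT became 17 by DESeq2, 7 with the replicate block, and 9 to 11 with a mouse left out. The 6 calls of FL_KO against GC_KO ran from 4 to 8, and the 1 call of GC_KO against GC_WT became 3 by DESeq2, 2 by limma on either pseudocount, 0 without a TPM filter and 1 to 2 with a mouse left out. The block was not fitted in MdB and Kid, whose calls without it were counted. With it the spleen calls of Apoa1 and Apoa5 were lost (adjusted p = 0.121 and 0.0831), although same-numbered mice did not all correlate above 0.1 in Spl. The causes were not tested. Of all values recomputed, 483 kept direction and side of the threshold, 41 lost the call, 9 gained it and 4 turned. In spleen and thymus most of these genes lie at a few TPM, where counts limit what can be seen.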

Other observations

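Mouse FL04, left out above, had 348.5 TPM of Apoa4 in liver, below the other FL_KO mice (474 to 834 TPM) and above every GC_KO mouse (at most 45.5 TPM). Its liver Mttp was 118.4 TPM (others 118.8 to 157.2), and the other 8 genes lay within the range of the FL_KO mice. In its spleen, Apoa1 stood at 19.1 TPM (others 3.51 to 11.5), Apoa2 at 34.8 TPM (4.74 to 21.7) and Apoa5 at 3.84 TPM (0.31 to 0.94).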
